A study of Mus musculus with 16 samples.

Results

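The microRNA miR-21a was described through its 2 mature strands, miR-21a-5p (mmu-miR-21a-5p in the files) and miR-21a-3p (mmu-miR-21a-3p), which were 2 of 1247 mouse miRNAs on the array. Its members were the array rows annotated with either of these names, control spots left out, and the ratio of the 3p to the 5p signal was taken on each array. Total RNA came from RAW264.7 cells, a macrophage-like line derived from a mouse leukaemia, so the groups are separate cultures of 1 line and not animals. Per the labels, all cells were kept in complete medium with 10% fetal calf serum, and each group held 4 arrays, 1 from each of 4 independent experiments. Th2_IL33 cells were grown for 48 h with IL-4 and IL-13 (interleukins of the Th2 type, 10 ng per ml), washed, and given murine recombinant IL-33, an alarm cytokine of the IL-1 family, at 20 ng per ml over 4 h. Media_IL33 cells were grown without the Th2 cytokines and given the same IL-33. Th2 cells had the Th2 cytokines and no IL-33, and Media cells had neither. The design asks how Th2 cytokines and IL-33, separately and together, alter macrophage miRNAs.

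A miRNA hairpin is cut by Drosha and Dicer to a duplex of 2 short strands. One strand, the guide, is usually retained by an Argonaute protein and represses messenger RNAs that pair with its seed, while the other, the passenger, is usually degraded. The 5p strand is the usual guide of miR-21. A known target of the guide is the tumour suppressor Pdcd4, and transcription of the gene is known to respond to AP-1, STAT3 and NF-kB. In macrophages miR-21 is known as an inflammation-responsive miRNA.

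Both strands come from 1 hairpin, shown because the arms compared below are its 2 sides. In RefSeq on GRCm38.p6 the gene Mir21a lies on the minus strand at chr11:86584067-86584158, inside the span of Vmp1 (vacuole membrane protein 1, chr11:86583858-86683836, minus strand), 209 bases from the low end of that gene. Whether that stretch is exonic or intronic was not analysed here. The capitals below mark the 5p arm, positions 18 to 39 of the 92 bases, and the 3p arm, positions 56 to 77.
Mir21a hairpin: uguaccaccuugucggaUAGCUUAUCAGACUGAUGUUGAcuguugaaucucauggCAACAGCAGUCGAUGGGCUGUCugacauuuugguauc

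The mature strands are 22 bases each, at chr11:86584120-86584141 for 5p and chr11:86584082-86584103 for 3p. They are shown with the miR-21 relatives of the RefSeq table, with the seed (bases 2 to 8) in capitals.
miR-21a-5p: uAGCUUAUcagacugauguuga
miR-21a-3p: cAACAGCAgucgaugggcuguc
miR-21b: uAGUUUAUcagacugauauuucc
miR-21c: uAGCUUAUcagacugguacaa

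The 2 arms share no seed. Among 1679 mature names in that table only miR-21c has the 5p seed, and no other has the 3p seed. Counted from the 5′ end, miR-21b differs from miR-21a-5p at 4 of 22 positions, C4U, G18A, G21U and A22C, of which the first lies in the seed. miR-21c differs at 5 of 21 positions, A16G, G18A, U19C, U20A and G21A. Neither relative was above background on any of the 16 arrays, and the same held for miR-590-5p and miR-590-3p. miR-590 is another miRNA named as a member of the miR-21 family. Its strands are not among the names in that table, so their seeds were not compared.

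The probes were DNA complementary to the 3′ part of each strand, and they are shown because their lengths set how each arm was read. The 5p arm had a 20-base and a 19-base probe, and the 3p arm had 4 nested probes of 12 to 15 bases.
miR-21a-5p, 20-base probe: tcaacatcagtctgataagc
miR-21a-5p, 19-base probe: tcaacatcagtctgataag
miR-21a-3p, 15-base probe: gacagcccatcgact
miR-21a-3p, 14-base probe: gacagcccatcgac
miR-21a-3p, 13-base probe: gacagcccatcga
miR-21a-3p, 12-base probe: gacagcccatcg

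Each 5p probe was printed in 20 spots and each 3p probe in 10. No other mature miRNA in the table matched any of the 6 probes in full. Both 5p probes were above background on all 16 arrays. The 15-base probe of the 3p arm was above background on 11 arrays, the 14-base probe on 9, and the 13-base and 12-base probes on 0. The signal of the 3p arm therefore came mainly from its 2 longest probes.

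Values are relative signals. The probe intensities of a miRNA were summed and divided by the 75th percentile, on the same array, of the 178 miRNAs that every array detected. A relative signal of 1 thus equals that percentile. Lower values were raised to a floor of 0.0353. Group differences were tested with limma on the log2 scale over 231 detected miRNAs, with Benjamini-Hochberg adjusted p values and a threshold of 0.05. Because probes of different length bind with different strength, the ratio of the 2 arms is not a ratio of molecules, and only its differences between groups are described.

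The arrays detected 206 to 256 miRNAs, and no spot was saturated. Media 3 correlated least with the other arrays of its group (median r 0.874), and Media 1, Media 2 (0.920 each) and Th2_IL33 2 (0.945) were also below the rest. The arrays came from 2 slides, with all Th2_IL33 arrays on slide 2, and 3 Th2, 3 Media and 2 Media_IL33 arrays on slide 1. The myeloid markers were fixed as 5 names, in which the miR-142 strands appear both as miR-142 and as miR-142a. Of these names 3 were on the array. miR-223-3p and miR-142a-3p were above background on 16 arrays and miR-142a-5p on 15. Their summed relative signals were 1.36 to 2.19 in Th2_IL33, 1.21 to 1.47 in Media_IL33, 1.37 to 2.15 in Th2 and 1.21 to 1.74 in Media. Of these, miR-223-3p averaged 0.875 in Th2_IL33, 0.408 in Media_IL33, 0.980 in Th2 and 0.444 in Media. All 14 marker miRNAs of other cell types were above background on 0 arrays, with sums of at most 0.0694 on any array.

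IL-33 raised the passenger strand, miR-21a-3p, in cells grown with and without Th2 cytokines. In Media_IL33 arrays 1 to 4 its relative signal was 0.168, 0.213, 0.196 and 0.246, against 0.0602, 0.0460, 0.0353 and 0.0832 in Media. Every Media_IL33 array lay above every Media array, as was so for 2.16% of all tested miRNAs. The mean was 0.206 ± 0.0327 in Media_IL33 and 0.0562 ± 0.0207 in Media (SD, n = 4 each), a 3.82-fold rise with a log2 difference of 1.93 ± 0.24 SE (limma adjusted p = 0.000252). This was the smallest p of the 231 miRNAs in that comparison, in which 1.73% of miRNAs passed as higher. The strand was above background on 4 of 4 Media_IL33 arrays and on 2 of 4 Media arrays. Media 3 was measured at 0.0152 and stood at the floor. With the 2 dim Media arrays set at the lowest signal well above background where their own was lower, the fold was 3.23.

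In Th2-grown cells miR-21a-3p had relative signals of 0.222, 0.257, 0.195 and 0.197 in Th2_IL33, against 0.0811, 0.0622, 0.0693 and 0.118 in Th2. The groups did not overlap, and 3.9% of all tested miRNAs had groups apart in the same comparison. The mean was 0.217 ± 0.0289 in Th2_IL33 and 0.0825 ± 0.0246 in Th2 (SD, n = 4 each), with a rise of 2.70-fold (log2 difference 1.43 ± 0.24 SE, limma adjusted p = 0.00366). Of all tested miRNAs 1.73% passed as higher. Only Th2 4 of the Th2 arrays was above background, while all 4 Th2 arrays were called detected by the scanner software. The other 3 already had signals over the lowest signal well above background on their arrays (0.0567, 0.0497 and 0.0534). Setting arrays at that limit therefore changed none of them and does not test the fold.

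In both IL-33 comparisons the strand was higher in 4 of 4 experiments. Per experiment the log2 difference was 1.48, 2.22, 2.47 and 1.57 for Media_IL33 over Media and 1.45, 2.05, 1.49 and 0.74 for Th2_IL33 over Th2. Experiment 4 held the smallest of the 8 values, in Th2-grown cells. With slide as a block the differences were 1.88 (adjusted p = 0.000750) in medium-grown and 1.28 (0.0417) in Th2-grown cells. Within slide 2 they were 1.65 and 0.88, each against 1 array, and within slide 1 the medium-grown cells gave 2.10. With normexp background correction, run with an offset of 50 added to each spot, the differences were 0.24 (adjusted p = 0.318) and 0.28 (0.120). That setting left the 3p sum of 4 probes at 311 to 463 intensity units, an added constant included. With the offset at 0 the sum was 111 to 263, against 9.36 to 149 in the scanner's own background-subtracted signal.

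Growth in Th2 cytokines gave no call for miR-21a-3p. The log2 difference of Th2 over Media was 0.58 ± 0.24 SE (limma adjusted p = 0.151), with a 95% interval of 0.063 to 1.11, higher in 4 of 4 experiments with overlapping groups, and it passed without Media 4 (0.80, adjusted p = 0.0324). Between Th2_IL33 and Media_IL33 the difference was 0.083 ± 0.24 SE (adjusted p = 0.802), with a 95% interval of -0.44 to 0.60. The groups stood in the order Th2_IL33, Media_IL33, Th2 and Media. The neighbours Th2_IL33 and Media_IL33 did not pass the test, nor did Th2 and Media, while Media_IL33 exceeded Th2 by 1.35 ± 0.24 (adjusted p = 0.00119, with 3.46% of miRNAs passing as higher) and Th2_IL33 exceeded Media by 2.02 ± 0.24 (adjusted p = 1.89e-05, with 9.52% passing). With normexp the difference of Media_IL33 over Th2 did not pass (0.16, adjusted p = 0.174, and 0.42, adjusted p = 0.0597, with offset 0). In total RNA from a culture, fewer cells with the strand and less of it per cell cannot be told apart.

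**Figure D1:**
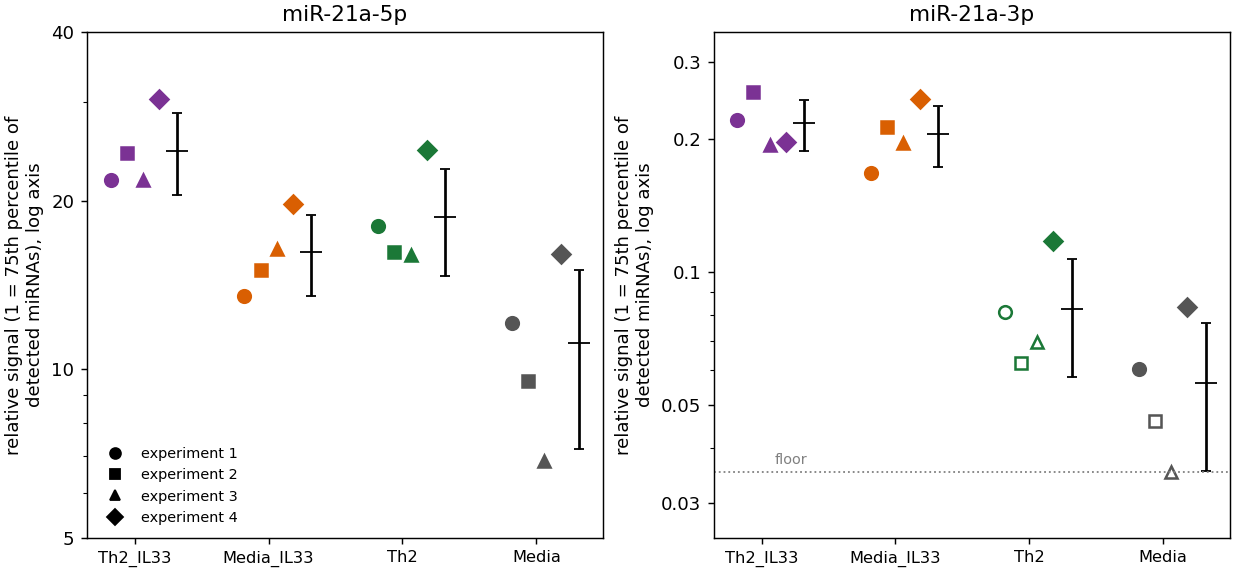
Relative signal (log axis) of miR-21a-5p, left, and miR-21a-3p, right, on each of the 16 arrays, by group and experiment. Open points were not above background, the dotted line is the floor of 0.0353, and bars are mean ± SD (n = 4). All 8 arrays with IL-33 lie at 0.168 or higher for miR-21a-3p and all 8 without it at 0.118 or lower, while the 5p groups overlap except where Th2_IL33 stands above Media_IL33 and Media.

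The guide strand, miR-21a-5p, moved less with IL-33. Its relative signal in Media_IL33 arrays 1 to 4 was 13.5, 15.1, 16.4 and 19.8, against 12.1, 9.52, 6.86 and 16.1 in Media. Media 4 lay above Media_IL33 1 and 2, so the groups overlapped. The mean was 16.2 ± 2.66 in Media_IL33 and 11.1 ± 3.92 in Media (SD, n = 4 each), and the log2 difference of 0.59 ± 0.23 SE did not pass (limma adjusted p = 0.480), with 4 of 4 experiments higher. Within slide 1 it was 0.83 and within slide 2 it was 0.24.

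In Th2_IL33 the guide strand had relative signals of 21.8, 24.3, 21.7 and 30.4, against 18.03, 16.2, 16.01 and 24.7 in Th2. The Th2 array of experiment 4 exceeded 3 of the 4 Th2_IL33 arrays. The mean was 24.6 ± 4.06 in Th2_IL33 and 18.7 ± 4.07 in Th2 (SD, n = 4 each), with a log2 difference of 0.40 ± 0.23 SE (limma adjusted p = 1, 4 of 4 experiments higher). The 95% interval, -0.089 to 0.89, includes 0. Within slide 2 the difference was -0.021, against the single Th2 array there.

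Growth in Th2 cytokines raised miR-21a-5p 1.74-fold in the absence of IL-33, with a log2 difference of 0.80 ± 0.23 SE (limma adjusted p = 0.0386), in a comparison where 8.66% of miRNAs passed as higher. It was higher in 4 of 4 experiments, by 0.57, 0.77, 1.22 and 0.62, although Media 4 (16.1) lay just above Th2 3 (16.01). The exact permutation test of the 2 groups gave p = 0.0571 (two-sided), and with slide as a block the adjusted p was 0.0503, with differences of 0.72 within slide 1 and 1.03 on slide 2, which held 1 array of each group. The call was also lost without Media 2 (0.0928) or Media 3 (0.0737), without Th2 1 (0.0866), Th2 2 (0.0528) or Th2 4 (0.0923), and without Media_IL33 2 (0.0514) or Media_IL33 3 (0.0548), which enter only through the shared spread. With the replicate number as a block it held (adjusted p = 0.00397).

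In the presence of IL-33 the guide strand of Th2_IL33 cells was at 1.52 times its level in Media_IL33 cells, and the log2 difference of 0.60 ± 0.23 SE did not pass (limma adjusted p = 0.139, with 8.23% of miRNAs passing as higher). No Th2_IL33 array overlapped with a Media_IL33 array, as was so for 16% of all tested miRNAs, and the exact permutation test gave p = 0.0286, the smallest possible with 4 against 4. With the replicate number as a block the same difference passed (adjusted p = 0.0233), as it did without Media 3 (0.0428). By mean the groups stood in the order Th2_IL33, Th2, Media_IL33 and Media. No neighbouring groups in that order differed past the threshold (adjusted p of 1, 0.704 and 0.480), while the ends did, with Th2_IL33 over Media at 2.29-fold (log2 difference 1.20 ± 0.23 SE, limma adjusted p = 0.00150), where 9.52% of miRNAs passed as higher.

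The ratio of the 3p to the 5p signal changed with IL-33. In Media_IL33 arrays 1 to 4 the 3p signal was 1.24%, 1.42%, 1.19% and 1.25% of the 5p signal, against 0.497%, 0.483%, 0.514% and 0.518% in Media. The lowest Media_IL33 array was above the highest Media array. The mean was 1.28% ± 0.0978 in Media_IL33 and 0.503% ± 0.0163 in Media (SD, n = 4 each). The close agreement within Media rests in part on Media 3, whose 3p signal stood at the floor and whose ratio without it was 0.222%. The ratio rose 2.53-fold (log2 difference 1.34 ± 0.14 SE, limma adjusted p = 4.76e-06) and had the smallest p of 24 hairpins with both arms tested. Of these 24, 8.33% passed in that comparison and 8.33% had groups apart.

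In Th2-grown cells the 3p signal was 1.02%, 1.05%, 0.896% and 0.648% of the 5p signal in Th2_IL33, against 0.449%, 0.384%, 0.433% and 0.476% in Th2. Again the groups were apart, as for 12.5% of the 24 hairpins, with Th2_IL33 4 the closest to the Th2 arrays. The mean was 0.903% ± 0.183 in Th2_IL33 and 0.436% ± 0.0388 in Th2 (SD, n = 4 each), a 2.05-fold rise (log2 difference 1.03 ± 0.14 SE, limma adjusted p = 9.56e-05), again the smallest p of the 24, of which 8.33% passed. Within slide 2 the difference was 0.90 in Th2-grown cells and 1.42 in medium-grown cells, and within slide 1 it was 1.27 in medium-grown cells. With normexp background correction both differences changed sign, to -0.12 in Th2-grown cells and -0.37 in medium-grown cells, neither past the threshold, and with its offset at 0 they were 0.17 and 0.081.

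**Figure D2:**
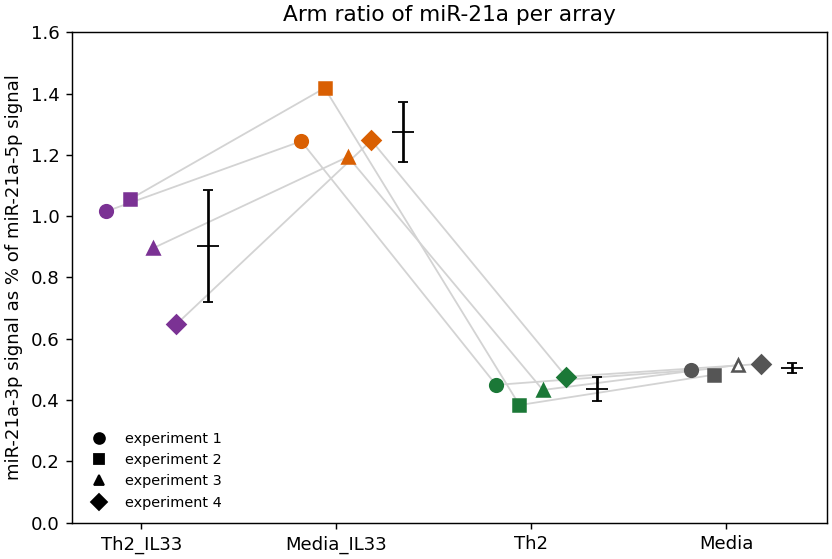
Signal of miR-21a-3p as a percentage of that of miR-21a-5p on each array, by group, with grey lines joining the arrays of 1 experiment and bars giving mean ± SD (n = 4). The open point has its 3p arm at the floor. The IL-33 groups lie at 0.648% to 1.42% and the others at 0.384% to 0.518%.

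Between the IL-33 groups the ratio was lower in Th2_IL33 than in Media_IL33, with a log2 difference of -0.52 ± 0.14 SE (0.697-fold, limma adjusted p = 0.0278), where 8.33% of the hairpins passed and 12.5% had groups apart. It was lower in 4 of 4 experiments, by 0.29, 0.43, 0.41 and 0.95 on the log2 scale, and the exact permutation test gave the smallest possible p, 0.0286. This call was lost with the replicate number as a block (adjusted p = 0.0705) and without Media_IL33 1 (0.0608), Media_IL33 2 (0.110), Media_IL33 4 (0.0610) or Th2_IL33 3 (0.0661). With quantile normalization the difference was -0.019 (adjusted p = 0.934) and in the authors' deposited table it was -0.19 (adjusted p = 0.990). Quantile normalization gave miR-21a-5p, ranked 3 on every array of both groups, a log2 difference of 0. It therefore could not show the 5p part of this ratio difference. In the absence of IL-33 the ratio of Th2 over Media differed by -0.21 ± 0.14 SE (limma adjusted p = 0.580), with an exact permutation p of 0.0286 and 4 of 4 experiments lower. Of the 24 hairpins 4.17% passed and 8.33% had groups apart in that comparison. The exact p and the 4 of 4 rest on Media 3, whose 3p arm stood at the floor (0.514%). Its ratio without the floor, 0.222%, lies under every Th2 array, including Th2 3 of the same experiment (0.433%). Without Media 3 the log2 difference was -0.20. By mean, with Media 3 at the floor, the ratio stood in the order Media_IL33, Th2_IL33, Media and Th2. Th2_IL33 exceeded Media by 0.82 ± 0.14 (adjusted p = 0.000357), where 16.7% of the hairpins passed. With normexp that difference was reversed and passed as lower (-0.75, adjusted p = 0.0149), and with offset 0 it was -0.32 (adjusted p = 0.195). Media_IL33 exceeded Th2 by 1.55 ± 0.14 (adjusted p = 8.08e-07), where 12.5% passed, and with normexp this did not pass (0.26, adjusted p = 0.465).

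The interaction subtracts the effect of IL-33 on medium-grown cells from its effect on Th2-grown cells. It was -0.50 ± 0.35 SE for miR-21a-3p (limma adjusted p = 0.995), -0.19 ± 0.32 for miR-21a-5p (adjusted p = 0.995) and -0.31 ± 0.20 for the ratio (adjusted p = 0.969). The 95% intervals, -1.24 to 0.24, -0.89 to 0.50 and -0.73 to 0.11, include 0. In this contrast 0 of 231 miRNAs and 0 of 24 ratios passed in limma, with 2.16% and 4.17% at an unadjusted p under 0.05. Comparisons named with a common group share its arrays, and all share 1 estimate of the spread, so their values are not independent.

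**Figure D3:**
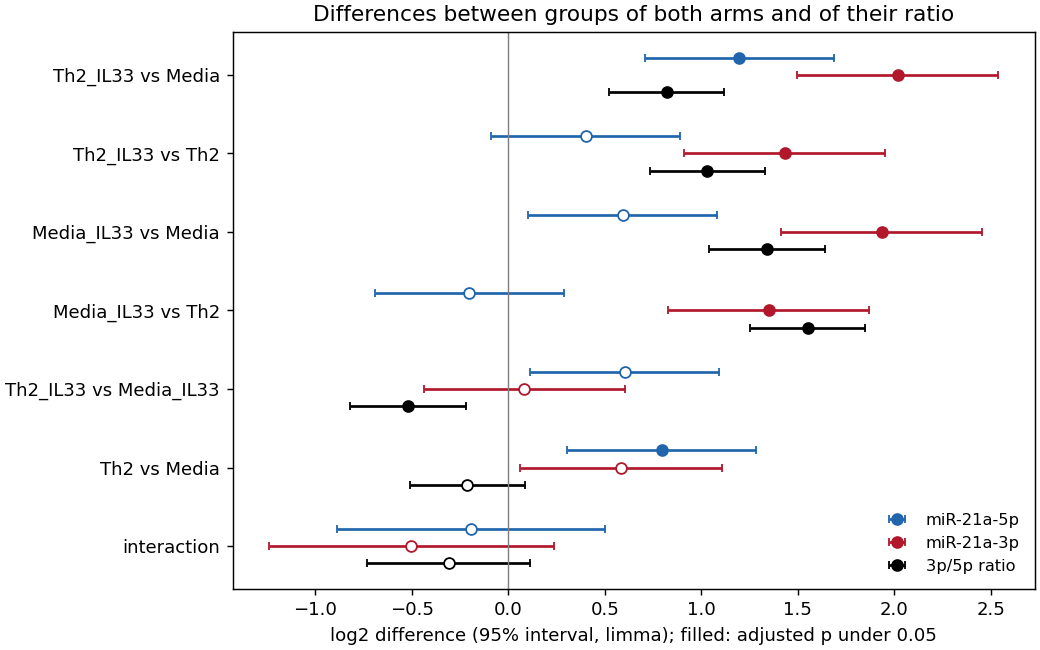
Log2 differences between groups, first-named group minus the second, for miR-21a-5p, miR-21a-3p and the 3p/5p ratio, with 95% intervals from limma and filled points where the adjusted p was under 0.05. The interaction is the effect of IL-33 on Th2-grown cells minus its effect on medium-grown cells. miR-21a-3p and the ratio pass in all 4 contrasts of an IL-33 group over a group without it, and miR-21a-5p in 1 of these 4.

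The 15-base probe of miR-21a-3p had a relative signal of 0.121 ± 0.0147 in Th2_IL33, 0.113 ± 0.0147 in Media_IL33, 0.0474 ± 0.0135 in Th2 and 0.0331 ± 0.0130 in Media (SD, n = 4 each). It was above background on 4 of 4 arrays of each IL-33 group, on 1 of 4 Th2 arrays and on 2 of 4 Media arrays. The 14-base probe was above background on 4 of 4 arrays of each IL-33 group, on 1 of 4 Th2 arrays and on 0 of 4 Media arrays. No fold is given for single probes, since most arrays without IL-33 were not above background. With these 2 probes alone the log2 ratio differed by 1.18 in Media_IL33 over Media (limma adjusted p = 8.61e-06) and by 0.92 in Th2_IL33 over Th2 (0.000148). Of the 5p signal the 20-base probe held 70.1% to 77.4% on the 16 arrays. As a ratio of group means, unlike the folds from log2 differences above, it was 1.67-fold higher in Th2 than in Media. The 19-base probe was 1.72-fold higher by the same measure.

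**Figure D4:**
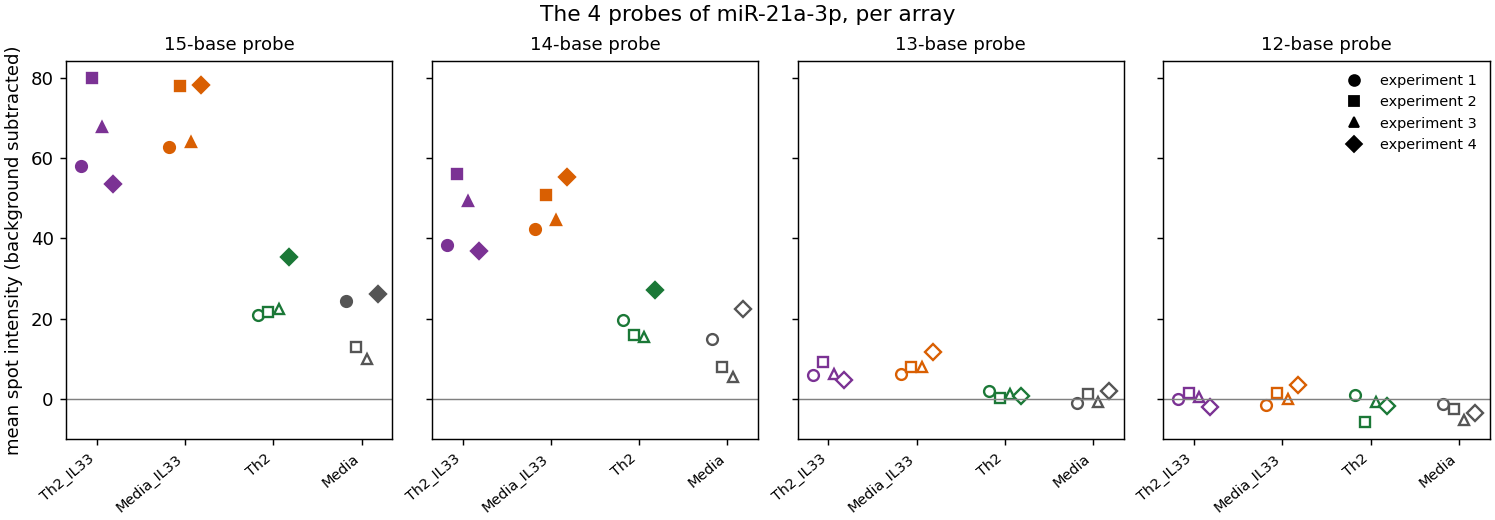
Mean background-subtracted spot intensity of the 4 probes of miR-21a-3p on each array, by group and experiment. Open points were not above background. The 15-base, 14-base and 13-base probes separate all IL-33 arrays from the others. The 13-base and 12-base probes were not above background and stay under 12 intensity units on every array.

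Within groups the 2 arms varied together. Their deviations from the group means had a Pearson r of 0.868 over 16 arrays, a description in which both arms of an array share its RNA and its scaling. Experiment 4 had the highest 5p signal in every group, at 30.4 in Th2_IL33, 19.8 in Media_IL33, 24.7 in Th2 and 16.1 in Media. For the 3p arm it was the highest in 3 of the 4 groups, and in Th2_IL33 it lay 0.13 log2 units under the group mean while the 5p arm lay 0.32 over it. Across all 16 arrays the arms correlated with r = 0.735, and 26 other miRNAs were closer to the 5p arm.

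The miRNAs whose log2 signal followed each arm most closely over the 16 arrays differed between the arms. For miR-21a-3p they were miR-155-5p (r = 0.915), miR-146a-5p (0.873) and miR-125a-5p (0.827). For miR-21a-5p they were miR-22-3p (0.916), miR-29a-3p (0.885) and miR-709 (0.861). All points share the arrays' scaling and the group structure. miR-155-5p, a miRNA induced in activated macrophages, averaged 0.151 in Th2_IL33, 0.0913 in Media_IL33, 0.0417 in Th2 and 0.0413 in Media, and was above background on 9 of 16 arrays. miR-146a-5p, an NF-kB-induced miRNA that represses Traf6 and Irak1, averaged 0.533, 0.484, 0.287 and 0.231 in the same groups.

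Beside miR-21a, 20 miRNAs known to respond to inflammatory signals in macrophages were listed, of which 10 could be tested. The list was chosen with earlier results of these data known, and a miRNA could enter the tests by detection throughout 1 group alone. The counts and medians below are therefore a description and not a separate test. In Media_IL33 over Media 3 of the 10 rose, namely miR-146a-5p, miR-146b-5p and miR-155-5p, and 0 fell, with a median log2 difference of 0.51 against 0.023 over all 231 miRNAs. In Th2_IL33 over Th2 3 rose, namely miR-146a-5p, miR-222-5p and miR-155-5p, and 0 fell, with a median of 0.46 against 0.0015. In Th2 over Media only miR-146b-5p rose (median 0.027 against 0.063), and in Th2_IL33 over Media_IL33 miR-146b-5p and miR-155-5p rose (median 0.15 against 0.080), with 0 lower in both. Of all 231 miRNAs 1.73% passed as higher in each IL-33 comparison, 8.66% in Th2 over Media and 8.23% in Th2_IL33 over Media_IL33, so the 1 of 10 in Th2 over Media is near the share of all miRNAs. Of all 231, 0% passed as lower in both IL-33 comparisons, 0.866% in Th2 over Media and 1.3% in Th2_IL33 over Media_IL33. The miR-21a-3p differences in the IL-33 comparisons were 1.93 and 1.43, and those of miR-155-5p were 1.17 and 1.86. miR-155-5p averaged 0.0413 in Media and 0.0417 in Th2, near the floor of 0.0353. Its lowest signal, 0.018, was raised to that floor, which can shrink its differences. For miR-21a-3p Media 3 was at the floor as well.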

How the data were processed

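MicroRNAs were measured in 16 samples of total RNA, each on 1 single-colour (Cy3) Agilent mouse array. The deposited scanner files give spot intensity after background subtraction, read with Agilent Feature Extraction 10.7.3.1 per the file headers. The authors also deposited quantile-normalized linear intensity values for all arrays, made with Partek 6.6 and RMA per the submitters' processing notes. Their further steps are not given in the sources used here.

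Spots marked as outliers were dropped, spots averaged per probe, and probes summed per miRNA. Each array was scaled to the 75th percentile (427 to 654 intensity units) of the 178 miRNAs that all arrays detected. Values under 0.0353 (the 1st percentile of detected signals) were set to it, and log2 was taken. A probe was above background where at least 50% of its spots were so marked. Tests covered the 231 miRNAs that were detected throughout 1 or more groups.

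limma 3.58.1 (R 4.3.3, with data.table, version 1.17.8) was fitted with 1 mean per group and 12 residual degrees of freedom, over 231 miRNAs, and over 24 hairpins for arm ratios. The 7 comparisons were adjusted separately. Exact permutation tests were two-sided. Precision is limited by having 4 arrays per group. The procedure was tested on simulated data.

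Per the labels, same-numbered samples of the 4 groups carry the same experiment letter, so the numbers pair the samples. The main limma fits and the exact permutation tests did not use this pairing, and only the fits with the replicate number as a block did. With that block the 5p difference of Th2_IL33 over Media_IL33 passed (limma adjusted p = 0.0233). The lower ratio in Th2_IL33 than in Media_IL33 did not (0.0705). As a check, residuals of same-numbered arrays had median correlations of -0.134, -0.121, 0.318 and 0.157 for numbers 1 to 4. Other background corrections, scalings, floors, filters, probes, blocks, array weights and left-out arrays were tried.

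The members, lists and tests were chosen with earlier results of these data known. The named miRNAs are the members, their relatives, the 3 most correlated with each, the inflammatory list, and up to 5 arm ratios past the threshold per comparison. Sequences are from RefSeq on GRCm38.p6 and from the scanner files, and 4 of 4 miR-21 names were found there.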

Additional observations from a re-analysis of the deposited data

How the results depend on the processing

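Over 21 results, 769 values were computed under alternatives, of which 710 kept both direction and side of the threshold, 4 reversed, 40 lost the threshold, 8 gained it and 7 moved by more than the spread. Some alternatives were chosen after seeing the data: no scaling, single probes, normexp offset 0, and dim arrays set at the limit. The 3p rise and the ratio rise with IL-33 depend on the background correction. With normexp the 3p differences were 0.24 (Media_IL33 over Media) and 0.28 (Th2_IL33 over Th2), and with offset 0 the second was 0.56 (adjusted p = 0.0541). The ratio differences were then -0.37 and -0.12, or 0.081 and 0.17 with offset 0, and Th2_IL33 over Media was -0.75, past the threshold as lower, or -0.32 with offset 0. For Th2 over Media the ratio passed at -0.63 and -0.49, and for Th2_IL33 over Media_IL33 it did not, at -0.38 and -0.40. By construction normexp leaves residual signal on every probe, its offset of 50 adds a constant to each unless set at 0, and 4 dim probes were summed. The 5p rise in Th2 over Media was lost with normexp (0.71), percentile over all miRNAs (0.74), the authors' table (0.41), no scaling (0.75), array weights (0.35) and without Media 1, Media 3 and Th2_IL33 2 (0.58). At 0.80 it was also lost with no filter, the slide block and the exact test. The lower ratio in Th2_IL33 than in Media_IL33 was lost with quantile normalization (-0.019), the authors' table (-0.19), the total gene signal (-0.49), outlier spots kept (-0.53), the dimmer 5p probe (-0.43) and both blocks (-0.56), and at -0.52 with a higher floor, no filter, dim arrays at the limit and the replicate block. The cause was not tested. The 5p difference of Th2_IL33 over Media_IL33 (0.60) passed with the replicate block and array weights. By the exact test, whose p is not adjusted, that difference and the ratio of Th2 over Media (-0.21) were under 0.05, which is not the adjusted threshold of the other calls. For the ratio of Th2 over Media that exact p rests on Media 3 at the floor. The replicate block changed no other call. Within slide 2, Th2 over Media was 0.97 for 3p, Media_IL33 over Media 0.24 for 5p, Th2_IL33 over Th2 -0.021 for 5p and 0.88 for 3p, and the ratio interaction -0.52. Leaving out each array gave 0.39 to 0.80 (3p, Th2 over Media), 0.59 to 1.00 (5p, Th2 over Media), 0.50 to 0.70 (5p, Th2_IL33 over Media_IL33) and -0.60 to -0.37 (ratio, Th2_IL33 over Media_IL33). The 3p signal was above background on 11 of 16 arrays, which limits its level without IL-33. In the authors' deposited table the 20-base 5p probe takes 4 distinct values over 16 arrays, so that table limits 5p comparisons. Quantile normalization likewise set the 5p difference between the 2 IL-33 groups to 0, so it could not show the 5p part of their ratio difference.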

Other observations

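The other hairpin whose arm ratio passed in both IL-33 comparisons was miR-222, which is known to repress the cell cycle inhibitor p27. Its 5p arm, the usual passenger, averaged 0.196 in Th2_IL33, 0.144 in Media_IL33, 0.112 in Th2 and 0.0932 in Media. Its 3p arm, the usual guide, averaged 0.795, 0.706, 0.669 and 0.669 in the same groups. The log2 ratio of 3p to 5p fell by 0.56 in Media_IL33 over Media (limma adjusted p = 0.00466) and by 0.58 in Th2_IL33 over Th2 (adjusted p = 0.00341). The 5p arm itself passed in Th2_IL33 over Th2 (0.82 ± 0.19 SE, limma adjusted p = 0.0338) and not in Media_IL33 over Media (0.65 ± 0.19, 0.179).

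With Th2 cytokines the arm ratio with the smallest p was that of miR-532, with log2 differences of -1.44 in Th2 over Media (limma adjusted p = 0.000335) and -1.27 in Th2_IL33 over Media_IL33 (adjusted p = 0.00125). Its 5p arm differed by 1.93 and 1.80 and its 3p arm, which includes values at the floor, by 0.48 and 0.53. The miR-222 and miR-532 ratios are given with the scanner's background subtraction only, on which the miR-21a ratio depended.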
